A study of Ovis aries with 8 samples.

Results

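Receptors for feeding peptides and metabolic hormones were examined in the mediobasal hypothalamus of adult Ile-de-France ewes that were food-restricted or well fed. The set was given as a list of 35 gene symbols, and a row of the count table belonged to it when its symbol was on that list. All 35 were found among the 33609 genes listed. RNA was extracted from each of 60 food-restricted ewes and 60 ewes fed ad lib, studied in 2 years with 30 per group each year, and mixed in equal amounts from 15 ewes into 4 sequencing pools per group. A pool is therefore a mean over 15 animals, n counts pools throughout, and the labels name neither the year of a pool nor the degree or length of the restriction, beyond food-restricted against food given ad lib. P-values measure the spread between such mixes.

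The mediobasal hypothalamus holds the arcuate nucleus, where circulating hormones and local peptides act on neurons that set food intake and energy use. Most of the receptors are G protein-coupled: NPY, opioid, somatostatin and cannabinoid receptors and the galanin receptors GALR1 and GALR3 mainly lower cyclic AMP through inhibitory G proteins, while those for GLP-1, GIP, calcitonin, PACAP and VIP raise it. RAMP1, RAMP2 and RAMP3 are single-pass partner proteins that change the ligand choice of the calcitonin receptor and its relative CALCRL. The adiponectin receptors form a separate membrane family, and ESR2 is a nuclear receptor. In bulk tissue, fewer cells of a type and less RNA per cell cannot be told apart.

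Total counts were between 41261774 and 42964514 in food-restricted pools and between 36192025 and 48125991 in well-fed pools. Counts were scaled to library size as CPM, and 18193 genes had enough reads for the test. Arcuate and ventromedial markers were all measured, with a summed level of 624 to 979 CPM in food-restricted pools, against 420.0 to 914 CPM in well-fed pools. Its members AGRP and NPY were higher in food-restricted pools without overlap, so the sum also carries their difference. AGRP averaged 155 CPM in food-restricted pools, against 50.7 CPM in well-fed pools, and NPY 141 against 59.8 CPM. Neuronal markers, 10 of 10 tested, summed to 2481 to 3122 CPM in food-restricted pools, against 2443 to 2833 CPM in well-fed pools, and the 9 endothelial and mural markers to 366 to 417 CPM in food-restricted pools, against 367 to 403 CPM in well-fed pools. Of the pituitary and pars tuberalis list 7 of 9 were tested, GH1 had no row under that symbol, and the list summed to 3127 to 3728 CPM in food-restricted pools, against 2551 to 4454 CPM in well-fed pools. The feeding groups overlapped in these 4 sums and in those of the 6 other cell type and region lists, but single markers were uneven from pool to pool: POMC ran from 50.5 to 359 CPM, AVP from 26.4 to 236 CPM, OXT from 0.857 to 52.7 CPM and LHB from 8.55 to 117 CPM over the 8 pools. Besides AGRP and NPY, EYA3 was higher in food-restricted pools without overlap (161 against 120 CPM, edgeR unadjusted p = 0.00284). With overlap, DIO2 (62.0 against 93.7 CPM, edgeR unadjusted p = 0.00564) and TAC3 (115 against 146 CPM, edgeR unadjusted p = 0.0228) were lower. Neither EYA3, DIO2 nor TAC3 passed after adjustment. Among genes with at least 10 counts in each of the other 7 pools, 69 were at 0 in food-restricted pool 1 and 32 in food-restricted pool 3, against at most 5 in any other pool, and both pools are therefore also left out below. The first principal component of log2 CPM put food-restricted pools 1 and 2 with well-fed pools 3 and 4, the first set, and food-restricted pools 3 and 4 with well-fed pools 1 and 2, the second set. The sets stayed as they are when the 35 receptor genes were left out of the component.

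Depth of measurement differed widely across the receptors, between a mean of 3.38 counts per pool for GALR2 and 22922 for ADCYAP1R1. By their mean raw count over the 8 pools, 19 genes were well measured (100 counts or more), 12 were intermediate (10 to under 100) and 4 were near the floor (under 10), and none was at 0 in all pools. These classes describe how precisely a gene was counted. Transcript lengths were not used here, so counts and CPM of different receptors are not compared as expression levels. At the upper bound, BRS3 with a mean of 120.2 counts lay just inside and GALR3 with 95.4 just outside. At the lower bound, ESR2 with 10.5 counts lay just above, and GALR1 and OXTR with 8.25 each just below.

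**Figure D1:**
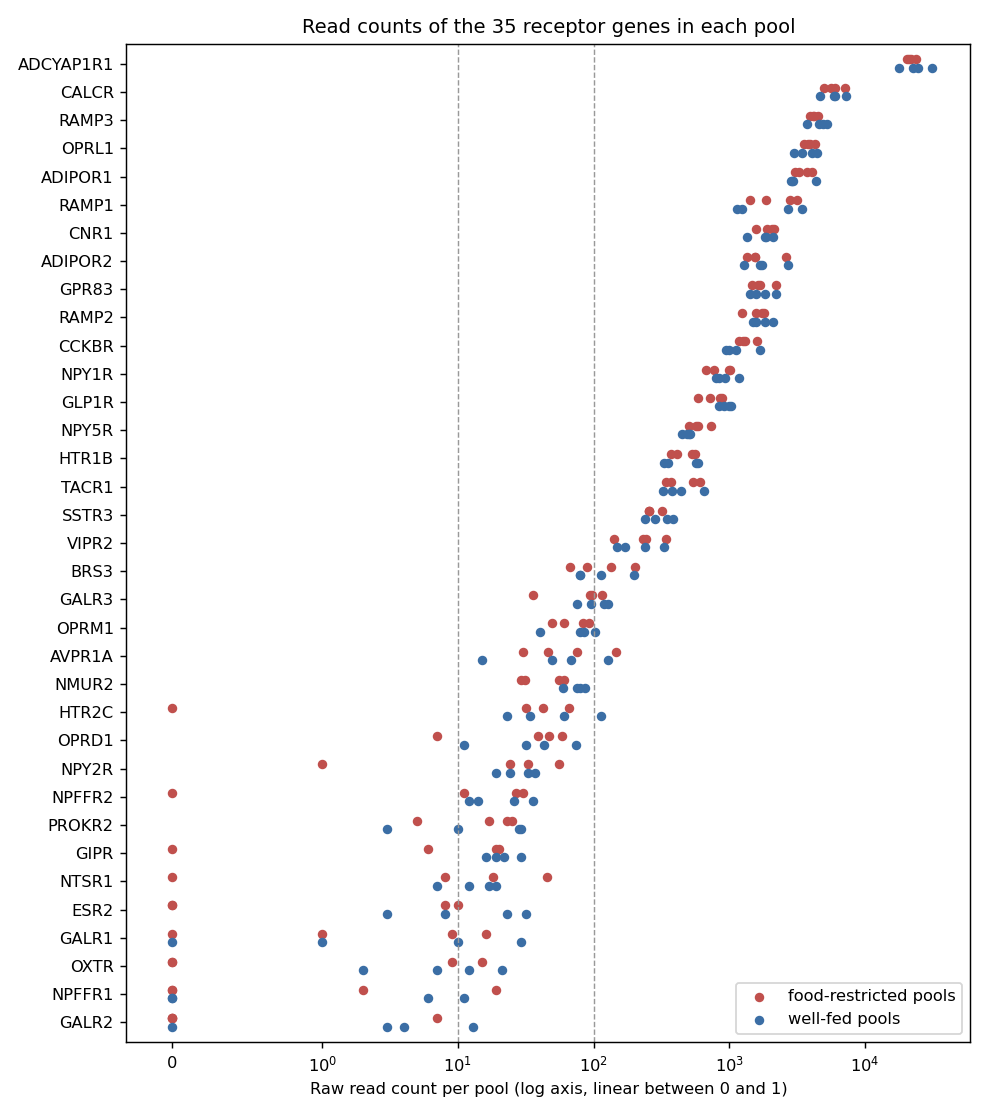
Raw read count of each of the 35 receptor genes in each of the 8 pools, with food-restricted pools in red above well-fed pools in blue, on a log axis that is linear between 0 and 1; dashed lines mark 10 and 100 counts. The 19 genes with a mean of 100 counts or more run from BRS3 up to ADCYAP1R1, and zeros occur only in genes with a mean under 100.

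The 5 deepest receptors were ADCYAP1R1, CALCR, RAMP3, OPRL1 and ADIPOR1. ADCYAP1R1 (gene ID 443231), the PAC1 receptor for PACAP, was at 475, 521, 495 and 568 CPM in food-restricted pools 1 to 4 and 681, 585, 515 and 506 CPM in well-fed pools 1 to 4. The groups overlapped, with well-fed pool 1 highest of all 8, and the log2 fold change was -0.15 (SE 0.11). CALCR (gene ID 101113579), the calcitonin receptor and, with a RAMP, the amylin receptor, was at 132, 119, 166 and 144 CPM in food-restricted pools 1 to 4 and 158, 158, 123 and 131 CPM in well-fed pools 1 to 4. Its levels interleaved, and the log2 fold change was -0.026 (SE 0.13). OPRL1 (gene ID 101107542), the nociceptin receptor, was at 83.7, 103, 89.5 and 93.5 CPM in food-restricted pools 1 to 4 and 89.2, 89.6, 92.3 and 84.2 CPM in well-fed pools 1 to 4, with overlapping groups. It had the narrowest spread of the 35, a within-group coefficient of variation of 6.68%, and the log2 fold change was 0.056 (SE 0.10).

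Counting error alone did not set the spread of any tested receptor. The coefficient of variation within groups was between 2.07 and 20.9 times the counting error that the mean count gives (at least 2-fold in 30 of 30 tested receptors, and in 94.8% of all tested genes). Among the 19 well-measured receptors it had a median of 14.6% and ran from 6.68% for OPRL1 to 44.3% for RAMP1. The 16 receptors under 100 counts spread by 2.50 to 5.58 times their counting error, so the pools differed there by more than the count allows. SSTR3, a somatostatin receptor of neuronal cilia, came nearest to counting error.

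**Figure D2:**
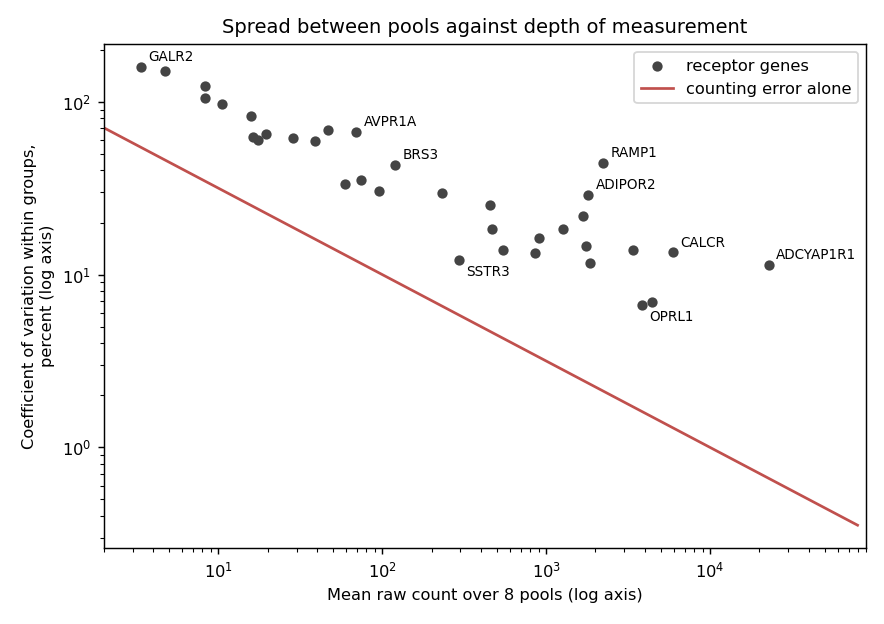
Within-group coefficient of variation of CPM (percent, log axis) against the mean raw count over 8 pools (log axis) for the 35 receptor genes, with the line that counting error alone would give. Every point lies above the line, and RAMP1 at 44.3% stands highest among the well-measured genes.

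No receptor gene passed the test between feeding groups. Of 35 genes 30 had enough reads to be tested, which the filter grants when at least 4 pools reach the minimum, and 0 passed (edgeR quasi-likelihood test, adjusted p over all 18193 genes under 0.05), beside a background of 0.0055% of all tested genes. DESeq2 and limma voom also called 0 of 30. At an unadjusted p under 0.05 there was 1 receptor, GLP1R, of 30, where the background was 1.7%. In CPM the groups did not overlap in 1 receptor, again GLP1R, beside 1.6% of all tested genes. The tested receptors had 13 log2 fold changes above 0 and 17 below, with 52.9% of all genes above 0. Their median was -0.03 beside 0.01 for all genes tested, and the values ran from -0.93 for GIPR to 0.34 for NTSR1, both intermediate in depth. The adjusted p was 1.00 for all 30.

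The width of the 95% interval says how large a difference the pools leave possible. The interval lay within 1.5-fold either way for 11 of 30 tested receptors (36.7%), all of them well measured, beside 54.4% of all tested genes. Within 2-fold lay 20 of 30 (66.7%), the 19 well-measured receptors and OPRM1, beside 75.1% of all tested genes. On the log2 scale the interval was -0.17 to 0.28 for OPRL1, -0.39 to 0.063 for RAMP3, -0.32 to 0.27 for CALCR, -0.21 to 0.37 for CNR1 and -0.20 to 0.41 for ADIPOR1. It was -1.78 to 2.46 for NTSR1 and -2.80 to 0.94 for GIPR, the widest of the set together with HTR2C and NPFFR2. A missed threshold does not show equal levels in any of them.

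**Figure D3:**
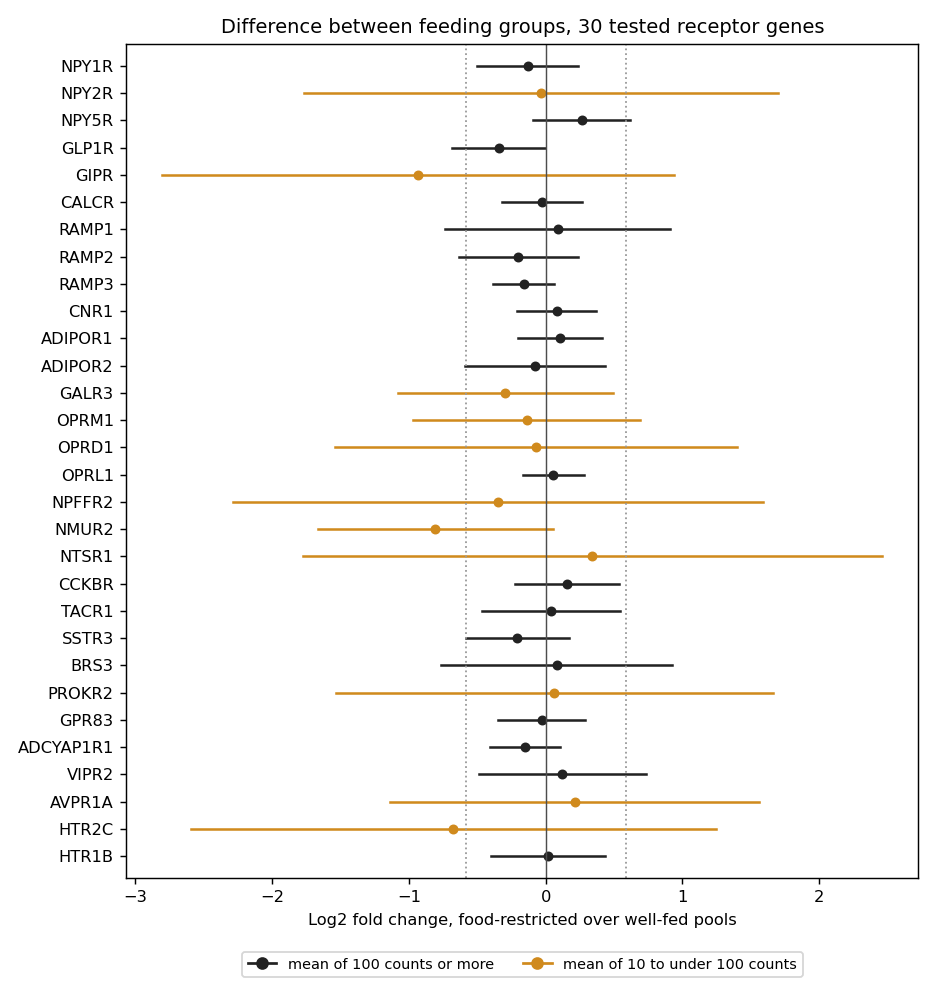
Log2 fold change, food-restricted over well-fed pools, with its 95% interval for the 30 tested receptor genes in the order of their roles; dotted lines mark 1.5-fold either way, and colour gives the depth class. Every interval but that of GLP1R includes 0. The 9 widest belong to intermediate genes, and the well-measured BRS3 and RAMP1 have wider intervals than the intermediate GALR3.

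Among the NPY receptors, NPY1R and NPY5R, which carry the feeding effect of NPY, were well measured and NPY2R, the presynaptic receptor that also binds PYY, was not. NPY1R (gene ID 443361) was at 15.9, 18.4, 23.3 and 24.1 CPM in food-restricted pools 1 to 4 and 25.7, 20.6, 19.5 and 23.8 CPM in well-fed pools 1 to 4. Its groups overlapped, food-restricted pool 1 being lowest of the 8, and the log2 fold change was -0.13 (SE 0.17). NPY5R (gene ID 101106846) was at 17.3, 12.1, 13.7 and 13.4 CPM in food-restricted pools 1 to 4 and 11.2, 11.7, 10.5 and 13.7 CPM in well-fed pools 1 to 4. Food-restricted pool 1 was highest here, well-fed pool 4 lay within the food-restricted range, and the log2 fold change was 0.26 (SE 0.16) (edgeR unadjusted p = 0.128). NPY2R (gene ID 101122628) had 1, 33, 56 and 24 counts in food-restricted pools 1 to 4 and 33, 19, 24 and 37 counts in well-fed pools 1 to 4, with a 95% interval of -1.77 to 1.70 on the log2 scale. Food-restricted pool 1, with 1 count, was lowest, and without it the log2 fold change was 0.37, against -0.035 with all pools.

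GLP1R (gene ID 541609), the receptor through which GLP-1 lowers food intake, was at 13.7, 20.3, 20.6 and 17.2 CPM in food-restricted pools 1 to 4 and 22.7, 23.7, 20.8 and 23.8 CPM in well-fed pools 1 to 4. Each of the 4 food-restricted pools was lower than any well-fed pool, by a small margin between food-restricted pool 3 and well-fed pool 3. GLP1R averaged 17.9 ± 3.22 CPM across food-restricted pools, against 22.8 ± 1.38 CPM across well-fed ones (± SD, n = 4 each), giving a log2 fold change of -0.34 (SE 0.15). The adjusted test was not passed (edgeR unadjusted p = 0.0478, adjusted p = 1.00), and an exact permutation of the pools (two-sided, log2 CPM) gave p = 0.0286, the smallest that 4 pools against 4 allow. That smallest value follows from the lack of overlap and is no separate evidence. Food-restricted over well-fed, the level was 0.762-fold in the first set and 0.812-fold in the second. Without overlap between the groups, both had to be decreases. The unadjusted p was 0.129 and the log2 fold change -0.23 without food-restricted pool 1, the lowest, and 0.103 and -0.28 without food-restricted pools 1 and 3 (edgeR). Over the 18 alternatives the unadjusted p of GLP1R lay between 0.0264 and 0.129 and was under 0.05 in 8, with adjusted p between 0.964 and 1.00. In DESeq2 the unadjusted p was 0.0528.

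GIPR (gene ID 101114380), the receptor of the incretin GIP, was counted thinly, with 0, 19, 20 and 6 counts in food-restricted pools 1 to 4 and 22, 16, 29 and 19 counts in well-fed pools 1 to 4. Food-restricted pools 1 and 4 lay below the others, and the remaining ones overlapped with well-fed pools. The log2 fold change of -0.93 (SE 0.85) has an interval of -2.80 to 0.94, and without food-restricted pool 1 it was -0.52.

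The 3 RAMP genes were all well measured and differed in how steady they were. RAMP3 (gene ID 101113582) was at 91.6, 101, 96.5 and 107 CPM in food-restricted pools 1 to 4 and 116, 119, 103 and 105 CPM in well-fed pools 1 to 4. It was lowest in food-restricted pool 1, well-fed pools 3 and 4 fell within the food-restricted range, and the log2 fold change was -0.16 (SE 0.10) (edgeR unadjusted p = 0.142). RAMP2 (gene ID 101105172), which pairs with CALCRL in blood vessels to form an adrenomedullin receptor, was at 42.3, 29.7, 40.8 and 37.0 CPM in food-restricted pools 1 to 4 and 33.1, 54.6, 32.8 and 51.5 CPM in well-fed pools 1 to 4, with a log2 fold change of -0.20 (SE 0.20). Well-fed pools 2 and 4 stood above the 6 other pools. RAMP1 (gene ID 101110380), which forms the CGRP receptor with CALCRL and an amylin receptor with CALCR, was at 65.2, 75.7, 33.1 and 44.4 CPM in food-restricted pools 1 to 4 and 24.9, 32.2, 72.2 and 76.1 CPM in well-fed pools 1 to 4. Its high pools were food-restricted 1 and 2 and well-fed 3 and 4, in both feeding groups, and the log2 fold change was 0.088 (SE 0.37). For CALCRL, the shared partner, the log2 fold change was 0.053 (SE 0.18), a gene chosen for mention after its values were seen.

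**Figure D4:**
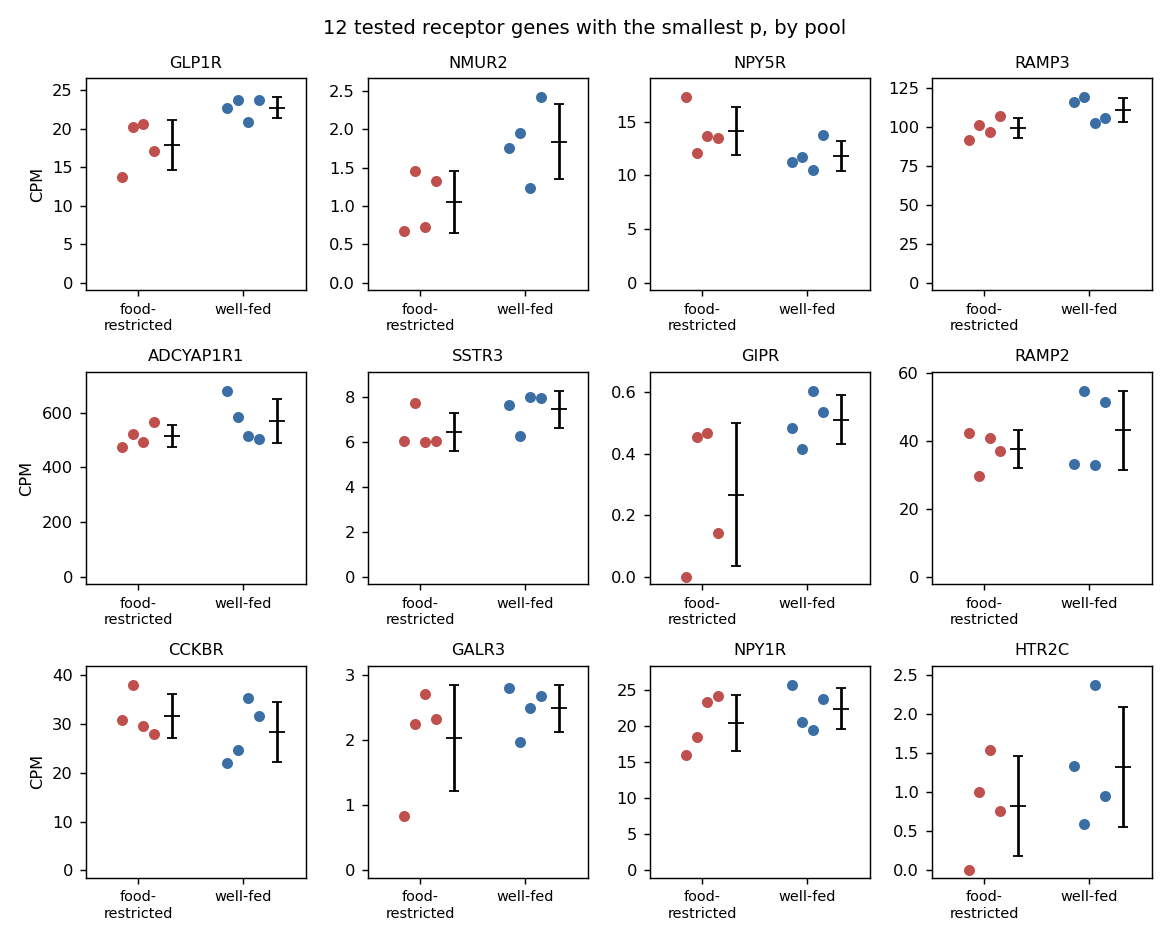
TMM-scaled CPM in each pool for the 12 tested receptor genes with the smallest unadjusted p, food-restricted pools in red left of well-fed pools in blue (pools 1 to 4 from left to right), with the mean and SD of each group of 4 in black. GLP1R is the panel without overlap, between 13.7 and 20.6 CPM in food-restricted pools and between 20.8 and 23.8 CPM in well-fed pools.

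The receptors for lipid and adipose signals did not part the feeding groups. CNR1 (gene ID 101111639), the neuronal cannabinoid receptor, was at 48.2, 37.5, 49.9 and 45.1 CPM in food-restricted pools 1 to 4 and 46.2, 47.5, 39.0 and 38.3 CPM in well-fed pools 1 to 4, with a log2 fold change of 0.080 (SE 0.13). ADIPOR1 (gene ID 101103911) was at 87.7, 97.3, 70.8 and 77.7 CPM in food-restricted pools 1 to 4 and 64.9, 74.8, 90.6 and 80.4 CPM in well-fed pools 1 to 4, with a log2 fold change of 0.10 (SE 0.14). The feeding groups overlapped in both genes. ADIPOR2 (gene ID 101116044) was at 36.1, 62.4, 31.7 and 36.6 CPM in food-restricted pools 1 to 4 and 38.6, 33.3, 56.9 and 47.4 CPM in well-fed pools 1 to 4, highest in food-restricted pool 2 and well-fed pool 3, with a log2 fold change of -0.079 (SE 0.23).

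Of the galanin receptors, GALR3 was tested and GALR1 and GALR2 lay near the floor. GALR3 (gene ID 101119389) was at 0.843, 2.25, 2.71 and 2.32 CPM in food-restricted pools 1 to 4 and 2.81, 1.98, 2.50 and 2.68 CPM in well-fed pools 1 to 4. Food-restricted pool 1 lay apart from the other 7 pools, and the log2 fold change of -0.29 (SE 0.35) was -0.033 without it. GALR1 (gene ID 101123170) had 9, 16, 1 and 0 counts in food-restricted pools 1 to 4 and 10, 0, 29 and 1 counts in well-fed pools 1 to 4. GALR2 (gene ID 101118117) had 0, 0, 0 and 7 counts in food-restricted pools 1 to 4 and 3, 0, 13 and 4 counts in well-fed pools 1 to 4. A count of 0 allows up to 3 counts, which is between 0.0625 and 0.0845 CPM in these pools and covers counting error only, and no fold is given for either. In the opioid family, OPRL1 was deep, while OPRM1 (gene ID 101104758), the mu receptor, and OPRD1 (gene ID 101109600), the delta receptor, had means of 73.9 and 38.9 counts. Their log2 fold changes were -0.14 (SE 0.38) and -0.067 (SE 0.67), and the levels ran from 1.04 to 2.87 CPM for OPRM1 and from 0.163 to 1.54 CPM for OPRD1 over the 8 pools.

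Both RF-amide receptors were thin. NPFFR1 (gene ID 100145876), the receptor of the peptides made from NPVF that act on the reproductive axis, was at 0 in 4 of 8 pools and had 19 counts at most, so no fold is given. NPFFR2 (gene ID 101102486), the neuropeptide FF receptor, had a mean of 19.5 counts with 0 in food-restricted pool 1 and a log2 fold change of -0.35 (SE 0.88).

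NMUR2 (gene ID 101107960), the brain receptor for neuromedin U and neuromedin S, which reduce feeding in rodents, had the second smallest p of the set. It was at 0.679, 1.46, 0.723 and 1.33 CPM in food-restricted pools 1 to 4 and 1.76, 1.95, 1.23 and 2.42 CPM in well-fed pools 1 to 4. Food-restricted pools 1 and 3 were the lowest, well-fed pool 3 lay below food-restricted pools 2 and 4, and NMUR2 averaged 1.05 ± 0.404 CPM across food-restricted pools, against 1.84 ± 0.493 CPM across well-fed ones (SD, n = 4 each). Its log2 fold change was -0.81 (SE 0.39) with an interval of -1.67 to 0.050 (edgeR unadjusted p = 0.0624, adjusted p = 1.00; exact permutation p = 0.0857). Food-restricted over well-fed, the level was 0.586-fold in the first set and 0.553-fold in the second. Without food-restricted pools 1 and 3 the log2 fold change was -0.39. Leaving out each pool in turn gave -0.99 to -0.64, with an edgeR unadjusted p between 0.0410 and 0.171, under 0.05 in 2 of 8 fits. The adjusted p of NMUR2 was at least 0.964 under every alternative. The counts behind these values were 29, 61, 31 and 56 in food-restricted pools 1 to 4 and 80, 75, 59 and 86 in well-fed pools 1 to 4.

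The other peptide receptors gave no unadjusted p under 0.05. CCKBR (gene ID 101118381), the brain-type cholecystokinin receptor, was at 30.7, 38.1, 29.5 and 28.0 CPM in food-restricted pools 1 to 4 and 21.9, 24.7, 35.2 and 31.7 CPM in well-fed pools 1 to 4, with overlapping groups and a log2 fold change of 0.15 (SE 0.17). SSTR3 (gene ID 101103055) was at 6.02, 7.71, 5.996 and 6.05 CPM in food-restricted pools 1 to 4 and 7.62, 6.24, 7.99 and 7.94 CPM in well-fed pools 1 to 4. Food-restricted pool 2 lay within the well-fed range, well-fed pools 1 and 2 lay within the food-restricted range, and the log2 fold change was -0.21 (SE 0.17). GPR83 (gene ID 101118815), for which a proSAAS-derived peptide has been proposed as ligand, had a log2 fold change of -0.028 (SE 0.14), and TACR1 (gene ID 101122011), the substance P receptor, one of 0.039 (SE 0.23). BRS3 (gene ID 443044), an orphan receptor whose loss makes mice obese, had 90, 135, 201 and 67 counts in food-restricted pools 1 to 4 and 197, 79, 114 and 79 counts in well-fed pools 1 to 4 and a log2 fold change of 0.079 (SE 0.38). Thinner were PROKR2 (gene ID 101114889), a prokineticin receptor, with a mean of 17.5 counts, and NTSR1 (gene ID 114117511), a neurotensin receptor, with 15.8. Their log2 fold changes of 0.064 (SE 0.72) and 0.34 (SE 0.96) carry SEs larger than the values.

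VIPR2 (gene ID 100500781), the VPAC2 receptor prominent in the suprachiasmatic nucleus, averaged 5.66 ± 1.96 CPM across food-restricted pools, against 5.19 ± 1.21 CPM across well-fed ones (SD, n = 4 each), and the log2 fold change was 0.12 (SE 0.28). AVPR1A (gene ID 100528010), a vasopressin receptor, averaged 1.75 ± 1.20 CPM across food-restricted pools, against 1.51 ± 0.983 CPM across well-fed ones (SD, n = 4 each). Its log2 fold change of 0.21 (SE 0.61) was -0.34 without food-restricted pool 1. OXTR (gene ID 443138), the oxytocin receptor, had 15, 9, 0 and 0 counts in food-restricted pools 1 to 4 and 12, 21, 7 and 2 counts in well-fed pools 1 to 4, near the floor in both groups. The serotonin receptors differed in depth. HTR1B (gene ID 101111375), a presynaptic receptor, was at 8.69, 9.84, 13.0 and 12.6 CPM in food-restricted pools 1 to 4 and 13.0, 9.20, 11.9 and 9.38 CPM in well-fed pools 1 to 4, with overlapping groups and a log2 fold change of 0.020 (SE 0.19). HTR2C (gene ID 101108550), through which serotonin reduces feeding, had 0, 42, 66 and 32 counts in food-restricted pools 1 to 4 and 61, 23, 114 and 34 counts in well-fed pools 1 to 4. The 0 in food-restricted pool 1 stood against 23 counts or more in the 7 other pools, and the log2 fold change of -0.68 (SE 0.87) was -0.26 without it. ESR2 (gene ID 443066), the estrogen receptor beta, had 0, 10, 0 and 8 counts in food-restricted pools 1 to 4 and 23, 3, 32 and 8 counts in well-fed pools 1 to 4. It did not enter the test, and its levels ran up to 0.239 CPM in food-restricted pools, against 0.667 CPM in well-fed pools.

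Food-restricted pool 1 listed 0 for 7 of the 35 receptors (GIPR, GALR2, NPFFR1, NPFFR2, NTSR1, HTR2C and ESR2), food-restricted pools 2 to 4 for 1, 4 and 2, and well-fed pools 1 to 4 for 1, 3, 0 and 0. All of these receptors had a mean under 100 counts. The part of this unevenness in the fold changes of thin receptors was not tested beyond the values without pool 1 given above.

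Part of the receptors varied along the first principal component. The first set of pools did not overlap with the second in 8 of 30 tested receptors (26.7%), beside 23.1% of all tested genes, so the share is near the background. RAMP1 averaged 72.3 CPM in the first set and 33.7 CPM in the second, a ratio of 2.15. The ratio was 3.01 for AVPR1A, 2.52 for OPRD1, 1.65 for OPRM1, 1.30 for CCKBR and 1.24 for ADIPOR1. CALCR and GPR83 ran the other way, with ratios of 0.809 and 0.836. Within the sets, food-restricted over well-fed, RAMP1 was 0.950-fold in the first set and 1.36-fold in the second and CALCR 0.987-fold in the first set and 0.979-fold in the second. Markers of cell types and regions parted the same sets in 21 of 79 tested (26.6%), beside 23.1% of all tested genes. This share, too, is near the background. The summed arcuate and ventromedial markers were at 744 to 979 CPM in the first set and 420.0 to 732 CPM in the second, and those of the pituitary and pars tuberalis at 3555 to 4454 CPM in the first set and 2551 to 3485 CPM in the second, without overlap, while the sums of the 8 other lists overlapped. Singly, 3 of 11 tested arcuate and ventromedial markers (27.3%) and 3 of 7 tested pituitary and pars tuberalis markers (42.9%) parted the sets. The share of all tested genes was 23.1%, and lists this short give only rough shares. Sums of CPM rest mostly on the genes with most reads. POMC averaged 276 CPM in the first set and 74.7 CPM in the second, but TBX3 131 and 137 CPM and TAC3 135 and 125 CPM. CHGA averaged 2239 CPM in the first set and 1575 CPM in the second, but CGA 1153 and 1199 CPM and PRL 66.0 and 98.2 CPM. Higher in the first set were OXT (12.9 times the second), AVP (4.40), HCRT (3.43), POMC (3.69), LHB (4.04), the endothelial CLDN5 (5.01), the myelin gene MBP (1.88) and SLC32A1 of inhibitory neurons (1.74), and lower was the astrocyte gene SLC1A3 (0.799). These markers were chosen for mention after their values were seen, and their part in the receptor values was not tested. The sets come from these pools themselves and stand for no labelled batch. With them as a block in the fit, GLP1R had an edgeR unadjusted p of 0.0265 and an adjusted p of 0.991, and 0 receptors passed.

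**Figure D5:**
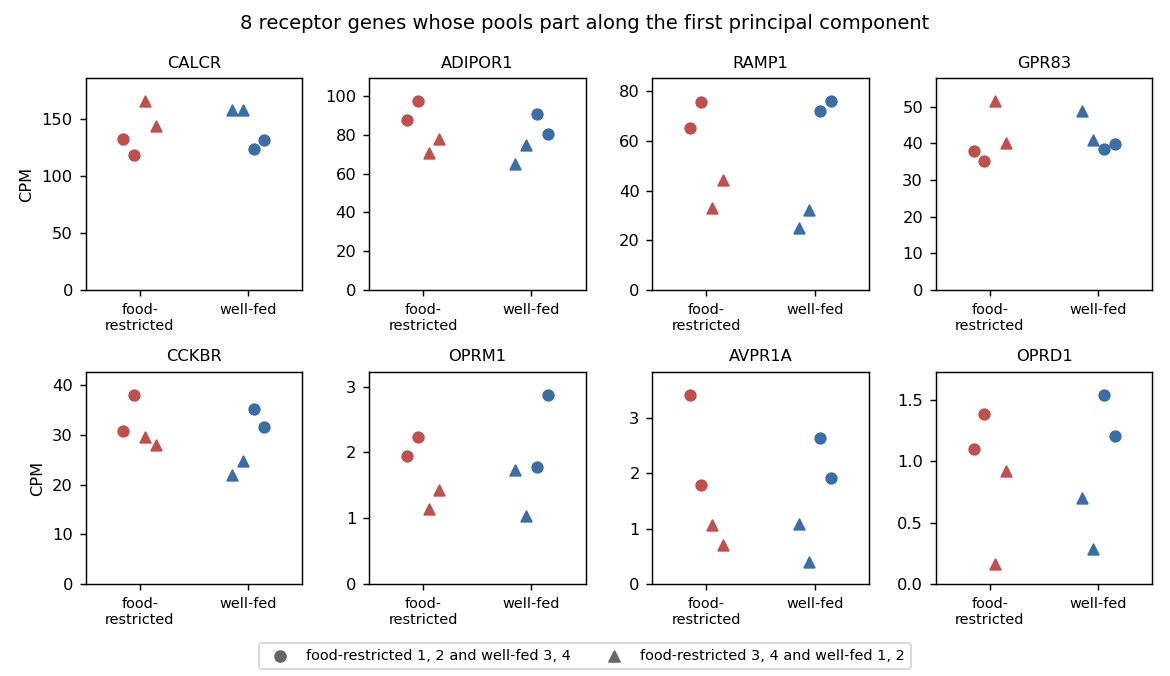
TMM-scaled CPM in each pool for the 8 tested receptor genes whose pools part without overlap along the first principal component, food-restricted pools in red left of well-fed pools in blue; circles are food-restricted pools 1 and 2 and well-fed pools 3 and 4, triangles the other 4 pools. RAMP1 shows it with a ratio of 2.15 between circles and triangles, in both feeding groups.

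The genes around these receptors were read from 5 lists with 157 names, of which 153 had a row and 133 were tested. None passed (edgeR adjusted p over all genes), 3 had an unadjusted p under 0.05 (2.26%, beside 1.7% of all tested genes), and DESeq2 and limma voom also called 0. Their median log2 fold change was -0.011 beside 0.013 for all genes tested, with 63 above 0 (47.4%, beside 52.9% of all genes). Of 33 ligand precursor genes 24 were tested, 15 above and 9 below 0, with a median of 0.041. NPY, the ligand of the NPY receptors, had the smallest p of the ligands, at 141 ± 46.4 CPM across food-restricted pools, against 59.8 ± 29.4 CPM across well-fed ones (SD, n = 4 each), and the log2 fold change was 1.24 (SE 0.35) without overlap. With the sets of the principal component as a block, NPY passed (edgeR adjusted p = 0.00404), while its adjusted p lay between 0.260 (DESeq2) and 1.00 under the other settings tried. Those sets were drawn from the same counts, NPY among them, so that p does not rest on a block known beforehand. NMU, the neuromedin U precursor and a ligand of NMUR2, was at 1.35 ± 0.961 CPM across food-restricted pools, against 0.456 ± 0.316 CPM across well-fed ones, a log2 fold change of 1.56 (SE 0.72) (edgeR unadjusted p = 0.0544). With each pool left out in turn, the NMU value was lowest without food-restricted pool 3 (0.998, edgeR unadjusted p = 0.211). It was highest without well-fed pool 4 (2.02, edgeR unadjusted p = 0.0321). TAC1, the substance P precursor, had a log2 fold change of 0.16 (SE 0.12), and VIP one of -0.79 (SE 0.89) with a mean of 15.8 counts. PPY, GCG, GIP, ADM2 and SST were listed at 0 in all 8 pools, GCG and GIP being the precursor genes for the ligands of GLP1R and GIPR. A 0 in all pools can come from the gene model or from read assignment, which was not tested.

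Of 34 G protein subunits and effectors 33 were tested, 17 above and 16 below 0 (median 0.00021). The smallest p were those of GNAI1, an inhibitory G protein subunit (0.26, SE 0.14), the adenylyl cyclases ADCY3 (-0.25, SE 0.15) and ADCY6 (-0.25, SE 0.15), and PRKACA, a catalytic subunit of protein kinase A (-0.26, SE 0.16), all as log2 fold changes. Of the 19 desensitisation and accessory genes, 7 were above and 12 below 0 (median -0.055). RGS2, which shortens G protein signals, was at 68.5 ± 9.61 CPM across food-restricted pools, against 86.4 ± 14.2 CPM across well-fed ones (SD, n = 4 each). Its log2 fold change was -0.33 (SE 0.15), with overlapping pools (edgeR unadjusted p = 0.0425, adjusted p = 1.00). The arrestins ARRB2 (-0.18, SE 0.11), whose pools did not overlap, and ARRB1 (-0.16, SE 0.11) and RGS4 (-0.24, SE 0.19) had the next smallest p. Enzymes and transporters of endocannabinoids and serotonin, 12 of 13 tested, had a median of -0.040. TPH2 (0.70, SE 0.49), TPH1 (-1.22, SE 0.85), DDC (-0.13, SE 0.13) and MAOA (-0.085, SE 0.13) came first by p, TPH1 and TPH2 at under 1 CPM on average. Among 45 tested receptors outside the set, 20 were above and 25 below 0 (median -0.011). The secretin receptor SCTR was at 0.785 ± 0.0897 CPM across food-restricted pools, against 1.43 ± 0.490 CPM across well-fed ones (SD, n = 4 each), and the log2 fold change was -0.86 (SE 0.38) without overlap (edgeR unadjusted p = 0.0470, adjusted p = 1.00). HTR5A (0.88, SE 0.44), HTR4 (-0.62, SE 0.41) and TACR3 (-0.37, SE 0.26), the neurokinin B receptor, followed.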

How the data were processed

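Gene expression was measured by RNA sequencing in 8 pools, 4 per feeding group. The authors deposited a single table of unnormalised read counts, per the file headers. Per the labels' protocols, RNA was extracted with TriReagent and libraries were made with a stranded TruSeq mRNA kit. The submitters' processing notes name, in no order, the counter featureCounts 2.0.0, the aligners Bowtie2 2.3.5.1 and TopHat2 2.1.1, and the tools SAMtools 1.9, FastQC and bcl2fastq 2.20. For build, annotation, strand setting and shared reads, what was chosen is not given in the sources used here, so overlapping genes are uncertain. Receptors were matched by the symbol in the table. Of partner genes, LOC rows took current symbols from RefSeq ARS-UI_Ramb_v3.0 by gene ID (83.6% of IDs matched). Protein and promoter sequences are not used here.

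With edgeR 4.0.16 (R 4.3.3), filterByExpr at a minimum count of 10 and total of 15 chose the genes, which were scaled by TMM and tested with glmQLFit and glmQLFTest without covariates, adjusting p over 18193 genes by Benjamini-Hochberg, with a threshold of 0.05. SE is the absolute log2 fold change over the square root of F, and 95% intervals use the t distribution. Exact permutation tests (70 relabellings) used log2 CPM with a prior count of 2. Within a group, counts of any pair of pools differed beyond sampling noise (chi-square over its degrees of freedom, 23.9 to 160.1), so none was taken for a repeat. The test was tested on simulated data. Alternatives were 3 other scalings, 2 other filters, a replicate block, the first principal component as a block, each pool left out, DESeq2 1.42.0 and limma voom (limma 3.58.1). Leaving out food-restricted pools 1 and 3 together was chosen after seeing the data. Values by pool are printed for receptors without overlap, with the 12 smallest p or the 8 highest counts, and for the NPY, RAMP and serotonin receptors, and 4 genes by p per partner list. The receptors, lists and alternatives were chosen with earlier results of these data known. Figures were drawn with matplotlib 3.10.9 in Python 3.11.15.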

Additional observations from a re-analysis of the deposited data

Results flagged for a closer look

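On log2 CPM, 60 groups of 4 pools (30 tested receptors in 2 feeding groups) were searched for a pool far from the rest, and chance marks about 1 in 20 such groups. In GALR3, food-restricted pool 1 was at 0.843 CPM against 2.25 to 2.71 CPM in the other food-restricted pools, a gap of 0.840 of the group's range. In SSTR3, food-restricted pool 2 was at 7.71 CPM against 5.996 to 6.05 CPM, a gap of 0.966 of the range. Both gaps pass Dixon's 95% critical value for 4 values, and 2 of 60 is under the share that chance gives.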

How the results depend on the processing

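Under all 18 alternatives 0 receptor genes passed the test, and their median log2 fold change lay between -0.13 and -0.013. Among all genes tested, 1 was called, AGRP. The count was 0 with the replicate block, 6 with the principal component block, 4 in DESeq2, 0 without any 1 of the 8 pools and 0 without food-restricted pools 1 and 3. Partner genes called numbered 0 except 1, NPY, with the principal component block, which was drawn from these same counts. Near the floor stood 2 receptors with bounds at 50 and 5 counts and 9 with bounds at 200 and 20 counts. Of 534 receptor fold changes under the alternatives 485 kept their sign and 49 changed it, in 16 genes, none called either way, and the cause was not tested. Changes of sign were NTSR1 with the replicate block (-0.40) and in limma voom (-0.81), PROKR2 with the principal component block (-0.013), and, without food-restricted pools 1 and 3, CNR1 -0.044, ADIPOR2 0.17, OPRD1 0.30, BRS3 -0.19, AVPR1A -0.27. Leaving out each pool in turn gave ranges that cross 0 for ADIPOR2 -0.33 to 0.080, AVPR1A -0.34 to 0.65, BRS3 -0.25 to 0.39, CALCR -0.12 to 0.064, GPR83 -0.15 to 0.057, HTR1B -0.067 to 0.13, NPFFR2 -0.75 to 0.070, NPY2R -0.58 to 0.37, NTSR1 -0.69 to 0.76, OPRD1 -0.36 to 0.30, OPRM1 -0.33 to 0.15, PROKR2 -0.26 to 0.40, RAMP1 -0.14 to 0.34, TACR1 -0.11 to 0.21, VIPR2 -0.089 to 0.31. The low-count filter of at least 1 CPM in 4 pools left 24 receptors to test, and no filter gave 35. Same-numbered pools of the 2 groups did not deviate together (correlations between -0.42 and -0.21, and 0 of 4 food-restricted pools correlated best with its own number), so the numbers are not taken as pairs. Of the 11 tested receptors under 100 counts, the 95% interval reached past 2-fold in 10. For GLP1R the edgeR unadjusted p was 0.0935 with the replicate block.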
